A study of Mus musculus with 3 samples.

Results

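The genes described here are 37 components of fibroblast growth factor (FGF) signalling: 20 ligands, 5 receptors, 2 adaptors, 8 feedback inhibitors and 2 transcription factors. They were chosen by name, with earlier results of these data known, and matched to the non-control spots of the arrays by gene symbol, accession or synonym. The lists of further pathway genes and of markers were also chosen with those results known. Shares set beside those of all genes thus describe the lists and are no test. Spots were found for 36 of the 37, with 72 probes and 117 spots, among 27654 gene names on the arrays. Fgf4 matched no spot and was not analysed here. A gene was tested where its brightest probe was well above background on some array. This held for 29 members, and for 27 of them the probe was above background on all 3 arrays. Of the whole array, 17709 genes were tested.

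The arrays measured total RNA from mouse embryonic stem (ES) cells of the line V6.5, which has a mixed 129 and C57BL6 background. The cells were grown with the cytokine LIF on irradiated feeder cells and were preplated, a step in which feeder cells settle on plastic, before RNA was taken. Samples of Tet1 knockout cells, KO 4 and KO 22, were compared with 1 Tet1 wild-type sample (WT), so the question is which genes differ in level when the DNA dioxygenase Tet1 is lost. The labels do not say how the Tet1 allele was made or whether KO 4 and KO 22 are separate clones, and both differences below are taken from the same WT array. The p-values therefore rest on the spread between KO 4 and KO 22, the gene's own combined with that pooled over all genes tested. They say nothing of the spread between WT cultures.

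FGF ligands bind receptor tyrosine kinases together with heparan sulfate on the cell surface. The activated receptor phosphorylates the docking protein Frs2, which brings in Grb2 and Sos and switches on RAS, RAF, MEK and ERK. ERK in turn induces Sprouty, Spred and dual-specificity phosphatase genes, whose products damp the pathway, and the ETS factors Etv4 and Etv5. In ES cells this pathway is known for moving cells out of the naive state towards lineage commitment. Fgf11 to Fgf14 are a separate branch of intracellular proteins that bind voltage-gated sodium channels.

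Values are processed spot intensities, and differences are log2(KO) minus log2(WT) after each array was set to its own 75th percentile of intensity. That percentile was 718 on KO 4, 645 on KO 22 and 624 on WT, so equal intensities on KO 4 and WT stand for a lower level on KO 4. A mean difference is given ± SE over 2 KO arrays against 1 WT array, and p-values are from limma, adjusted over all 17709 genes by the Benjamini-Hochberg method. Between 62.2% and 62.8% of the spots were well above background on each array and none was saturated. Tet1 itself had an intensity of 213.8 on KO 4, 195.4 on KO 22 and 720.9 on WT. It was lower on both KO arrays by a mean of -1.94 ± 0.09 (adjusted p = 0.0529), which did not pass the threshold of 0.05. All 8 ES cell markers examined (among them Pou5f1, Sox2 and Nanog) were well above background on every array, and their summed level was 250.9, 251.2 and 240.6 times the 75th percentile on KO 4, KO 22 and WT. Single markers differed more than these sums: 3 lay above WT on both KO arrays and 5 below. Pou5f1 differed by -0.46 and -0.47 and Esrrb by -0.46 and -0.48, while Klf4, the brightest, differed by 0.41 and 0.40. The WT array held 204 spots that were bright on that array alone, against 99 on KO 4 and 94 on KO 22. Of all probes, 8.23% lay within 2 rows and 2 columns of such a spot on the WT array.

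The feedback inhibitor Spry4 was the only member that passed limma's test, lower in both knockouts. It entered the test through 1 WT spot, since neither KO spot was well above background. No member was called higher. Over all genes tested, 0.322% were called lower and 0.0339% higher. At an unadjusted p below 0.05, 6 members were higher and 9 lower, shares of 20.7% and 31% against 13.2% and 15% of all genes tested. By size, 4 members were at least 0.5 (log2) above WT on both KO arrays (Fgf8, Fgf9, Fgfr1 and Dusp4), which is 13.8% of the members against 6.9% of all genes tested. On the other side, 5 members were at least 0.5 below WT on both (Fgf3, Fgf11, Fgf14, Fgf21 and Spry4), which is 17.2% against 5.89% of all genes. Of the members past 0.5, Fgf3, Fgf9, Fgf14, Fgf21 and Spry4 were dim, with intensities of at most 62.1 on any array. Past 2-fold on both KO arrays were Fgf8 above WT (1 member, 1.45% of all genes) and Fgf14 and Spry4 below it (2 members, 1.56% of all genes). Both KO arrays were above WT for 11 members (38% of all genes tested did so) and below WT for 13 (45.5% of all genes), shares of 37.9% and 44.8% that lie near those of all genes. The median difference of the members was 0.01 against -0.03 for all genes, and the median size of the difference, sign set aside, was 0.31 against 0.22. By role this size was 0.63 for ligands, 0.31 for feedback inhibitors, 0.25 for transcription factors, 0.06 for receptors and 0.02 for adaptors. When the spread was allowed to depend on intensity (limma with a trend), 4 members were called higher (8.31% of all genes) and 6 lower (10.7% of all genes), 13.8% and 20.7% of the members.

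**Figure D1:**
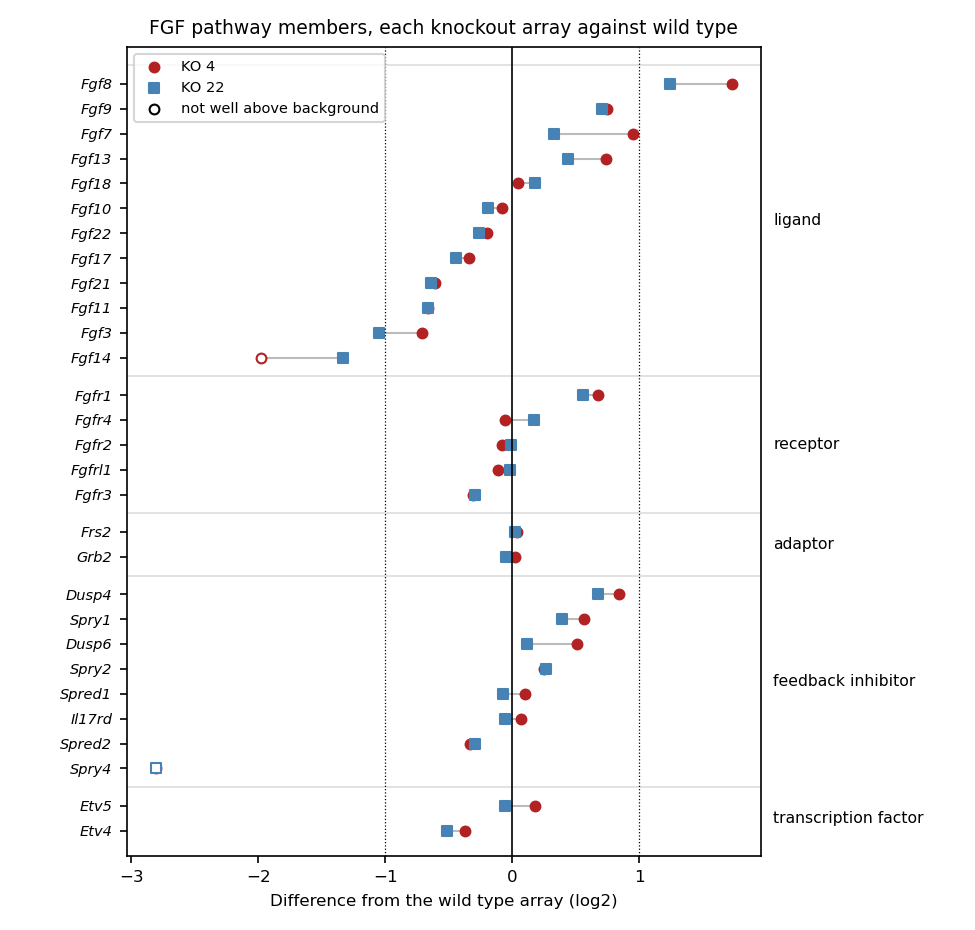
Difference from WT (log2, x axis) of the 29 tested members, in order of role, with KO 4 as circles and KO 22 as squares, open where the spot was not well above background; dotted lines mark 2-fold. Fgf8 lies farthest to the right (1.73 and 1.24) and Spry4 farthest to the left, where both open symbols coincide at -2.81, while the adaptors Frs2 and Grb2 sit within 0.05 of 0.

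Ligands lay on both sides of WT. Of the 20 ligands, 12 were tested, and 5 of these lay above WT on both KO arrays and 7 below. The other ligands with spots, Fgf1, Fgf2, Fgf6, Fgf12, Fgf16, Fgf20 and Fgf23, were not well above background on any array, with intensities of 2.07 to 10.6 over 13 probes, among them a pair of Fgf23 probes of opposite sign (-0.05 and -0.06, against 0.41 and 1.64). Fgf2, the ligand most used in culture media for primed stem cells, was read by 10 repeated spots of 1 probe, and 0 of them were well above background on each array.

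Fgf8, a secreted ligand that acts in gastrulation and body axis patterning, had the largest difference among ligands above WT. Its probe, at chr19:45633777-45633836 in build mm7, has 10 repeated spots on each array. Their intensities ran from 593 to 645 on KO 4 with a median of 613, from 373 to 425 on KO 22 with a median of 392, and from 152 to 175 on WT with a median of 162. The spots of the 3 arrays did not overlap, before or after scaling, and KO 4 was highest. Repeated spots show the precision of the array, since all of them read the same RNA. The mean difference was 1.48 ± 0.26, or 2.79-fold higher, and missed the threshold (adjusted p = 0.112). The normexp background correction lowered the difference to 0.49, or to 1.21 without 8 WT spots dimmer than their background. It passed with the intensity trend (adjusted p = 0.00902), and the adjusted p ran from 4.7e-06 to 0.201 over the alternatives. A second, dimmer Fgf8 probe read 36.5, 20.5 and 12.9 on KO 4, KO 22 and WT, differences of 1.29 and 0.62. Of 7 mesendoderm markers 6 were tested, 4 of which lay above WT on both KO arrays and 2 below. Their summed level was 3.99 on KO 4, 2.98 on KO 22 and 1.71 on WT. Most of each sum came from Sp5, the brightest, which differed by 1.16 and 0.78. Of the others above WT, Wnt3 differed by 2.07 and 1.39, T, the gene of brachyury, by 1.31 and 0.77, and Mesp1 by 0.36 and 0.44. The mean of 1.73 for Wnt3 became 0.25 with normexp, or 1.32 without the 8 dim WT spots. For T the mean was -1.71 with normexp, or 0.19 without those spots. Below WT were Gsc (-0.08 and -0.07) and Evx1 (-0.43 and -0.33), and Mixl1 was not well above background. Their part in the Fgf8 difference was not tested.

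**Figure D2:**
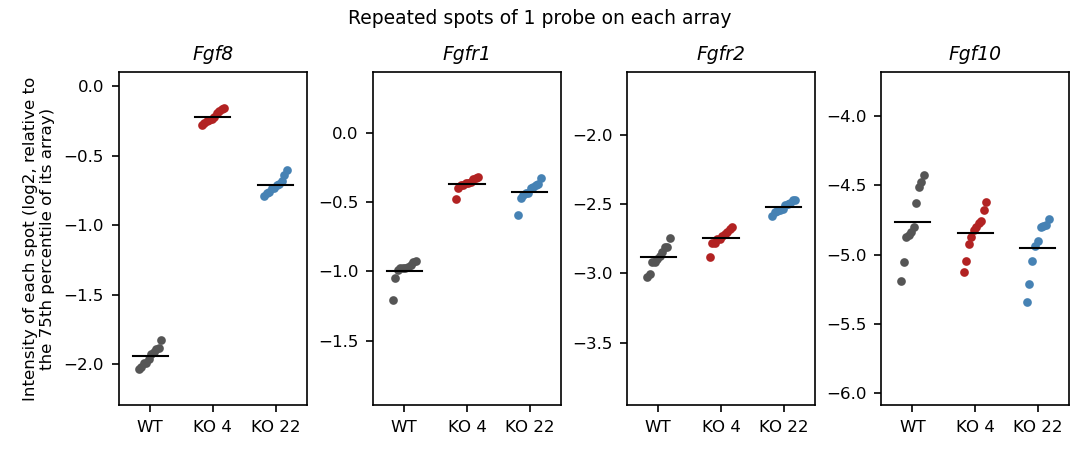
Intensity of each repeated spot (y axis, log2 relative to the 75th percentile of its array, with an axis of its own for each gene) of 1 probe of Fgf8, Fgfr1, Fgfr2 and Fgf10 on WT, KO 4 and KO 22; lines mark the mean. The Fgf8 spots form 3 separate bands, highest on KO 4 (-0.28 to -0.15) and lowest on WT (-2.04 to -1.83), while the Fgf10 spots of the 3 arrays overlap.

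Fgf9, a secreted ligand with roles in gonad and lung development, was dim, with intensities of 30.1 on KO 4, 26.2 on KO 22 and 15.5 on WT. Both knockouts were above WT, by 0.75 and 0.71 (mean 0.73 ± 0.09, adjusted p = 0.101). Fgf13, of the intracellular branch, read 90.2, 65.8 and 46.9 in the same order, differences of 0.74 and 0.44 (adjusted p = 0.165), and its 3 probes all had mean differences above 0. Fgf7, a ligand made by mesenchymal cells that acts on epithelia, read 27.6, 16.2 and 12.4. KO 4 stood 0.95 above WT and KO 22 only 0.33. These 3 differences were not stable to the background correction: with limma's normexp correction the mean differences became -1.81 for Fgf9, -1.16 for Fgf13 and -1.91 for Fgf7. With the 8 dim WT spots left out before that correction they were 0.14, 0.24 and 0.04. Fgf18, the ligand with the highest mean intensity over the 3 arrays, read 613.6, 604.3 and 514.3, and its differences of 0.05 and 0.18 were small (adjusted p = 0.53).

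Most markers of fibroblasts, the cell type of the feeder layer, were further above WT on KO 4 than on KO 22. Of the 15 tested, 4 lay above WT on both KO arrays, 1 (Thy1, -0.14 and -0.30) below on both, and 10 on different sides. The median difference of the 15 tested of 16 markers was 0.82 on KO 4 and -0.08 on KO 22, with summed levels of 54.8, 40.9 and 32.1 on KO 4, KO 22 and WT. Most of each sum came from Tagln and Acta2, the brightest of these markers. Tagln differed by 1.74 and 1.19, Acta2 by 0.03 and -0.07, Col1a1 by 1.06 and 0.27, and Col3a1 by 1.13 and -0.08. Fap was not well above background. In these arrays a change in the number of cells of a type and a change in RNA per cell cannot be told apart. The part of fibroblast RNA in the KO 4 values, those of Fgf7 included, was not tested.

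Fgf14 lay below WT by a size that is poorly measured. Its probe, at chr14:118381284-118381343 (mm7), read 11.4 on KO 4, 16 on KO 22 and 38.9 on WT, and the KO 4 spot was not well above background. The mean difference was -1.65 ± 0.34 (adjusted p = 0.123), with KO 4 at -1.98 and KO 22 at -1.33. It was -0.44 with normexp without the 8 dim WT spots, Fgf14 was not tested under the filter on all 3 arrays, and the other Fgf14 probes, not well above background on any array, differed by -1.30 and -0.36 and by 0.05 and 0.02. Fgf11, like Fgf14 a member of the intracellular branch, was brighter, at 341.3, 306.9 and 468.2. Both knockouts were 0.66 below WT (mean -0.66 ± 0.09, or 1.58-fold lower, adjusted p = 0.102, range over the alternatives 3.04e-06 to 0.17), and a second Fgf11 probe differed by -0.29 and -0.07. Fgf3, a secreted ligand of inner ear and tail development, read 40.0, 28.4 and 56.8. Its differences were -0.71 and -1.05 (mean -0.88 ± 0.19, adjusted p = 0.128). Fgf21, a hormone-like ligand of metabolism that needs the co-receptor Klb, read 32.3, 28.3 and 42.6, differences of -0.61 and -0.64 (adjusted p = 0.102). With the intensity trend Fgf3, Fgf11 and Fgf14 were called lower and Fgf21 was not.

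Fgf17, a ligand close to Fgf8 in sequence, lay on the opposite side from Fgf8. It read 445.3, 373.6 and 490.9 on KO 4, KO 22 and WT, differences of -0.34 and -0.44 (adjusted p = 0.147), and was called lower with the intensity trend. Fgf10, which drives limb and lung budding, had repeated spots at 20.6 to 29.2 on KO 4 (10 spots), 15.9 to 24.1 on KO 22 (9 spots, with 1 outlier-flagged spot left out) and 17.1 to 29.1 on WT (10 spots). These spots overlapped, and the differences were -0.08 and -0.19 (adjusted p = 0.46). Fgf22 differed by -0.20 and -0.26 (adjusted p = 0.23), and its second probe, which was not well above background, had the opposite sign (0.66 and 0.88). With normexp the mean differences of the dim ligands Fgf3, Fgf10, Fgf21 and Fgf22 all lay between -1.89 and -1.77. With the 8 dim WT spots left out before that correction they were -0.43, -0.14, -0.29 and -0.16.

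The stretch of 250 bases before the gene start is shown for 4 members, since Tet1 acts on methylated cytosine in CG pairs and the number of CG pairs before the start differed widely among them. The sequences are from RefSeq on build GRCm38.p6, written 5′ to 3′ along the gene's own strand with each CG in capitals. Spry1 lay above WT and has a CG-dense stretch at chr3:37639697-37639946 on the plus strand, with Fgf9 at chr14:58072436-58072685 (plus), Fgf3 at chr7:144838362-144838611 (plus) and Fgf11 at chr11:69802281-69802530 (minus).
Spry1: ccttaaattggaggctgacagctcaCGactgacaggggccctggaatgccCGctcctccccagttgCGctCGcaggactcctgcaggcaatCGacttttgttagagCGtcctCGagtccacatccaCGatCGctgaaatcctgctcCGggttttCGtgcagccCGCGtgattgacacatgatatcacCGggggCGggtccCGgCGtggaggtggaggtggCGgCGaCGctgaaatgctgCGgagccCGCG
Fgf9: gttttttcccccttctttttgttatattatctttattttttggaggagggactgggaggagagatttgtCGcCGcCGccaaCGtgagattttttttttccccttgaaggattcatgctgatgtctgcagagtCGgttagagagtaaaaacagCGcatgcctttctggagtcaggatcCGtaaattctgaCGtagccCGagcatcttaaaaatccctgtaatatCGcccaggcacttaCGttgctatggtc
Fgf3: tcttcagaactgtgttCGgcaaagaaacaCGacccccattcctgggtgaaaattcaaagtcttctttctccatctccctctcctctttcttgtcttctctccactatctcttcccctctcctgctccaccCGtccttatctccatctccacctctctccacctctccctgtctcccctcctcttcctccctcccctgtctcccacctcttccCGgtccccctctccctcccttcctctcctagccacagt
Fgf11: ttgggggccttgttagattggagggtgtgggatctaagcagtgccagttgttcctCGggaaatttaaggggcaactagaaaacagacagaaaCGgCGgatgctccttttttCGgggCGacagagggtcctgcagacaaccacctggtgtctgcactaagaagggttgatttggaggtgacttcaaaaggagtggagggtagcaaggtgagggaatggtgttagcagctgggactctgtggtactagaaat

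These stretches hold 23 CG pairs for Spry1, 11 for Fgf9, 4 for Fgf3 and 5 for Fgf11. The 4 members were picked by hand, and others went both ways. Spry2 (23 CG pairs) and Fgf7 (6) lay above WT, and Fgfr3 (19 and 24 at its separate starts) and Fgf21 (9) lay below. Of all 32851 promoter stretches of this length in the RefSeq table, 13.3% hold at least as many as Spry1, 35.6% as Fgf9, 62.2% as Fgf3 and 55.6% as Fgf11. Stretches were found for 28 of the members (37 in all, since some genes have several starts), with a median of 16 CG pairs against 6 over all. Those of Fgf8, Fgfr1, Dusp4, Spry4, Etv4, Fgf17, Fgf16, Fgf1 and Fgf20 were not used here. One form of the letters bound by ETS factors, CCGGAAG, searched on both strands, occurs in 2 of the 37 stretches (those of Fgfrl1 and Frs2) and in 6.91% of all. Shorter or other forms were not searched. Methylation was not measured on these arrays, so the CG counts describe the sequences alone.

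Of the receptors, Fgfr1 stood apart from the other 4. Fgfr1, the main receptor of FGF in ES cells, read 701.1 on KO 4, 581.1 on KO 22 and 381.1 on WT with its brightest probe at chr8:24330065-24330124 (mm7). Both knockouts lay above WT, by 0.68 and 0.56 (mean 0.62 ± 0.11, 1.54-fold, adjusted p = 0.111). With the intensity trend it was called (adjusted p = 0.0138), and the adjusted p ran from 0.00182 to 0.178 over the alternatives. All 4 Fgfr1 probes gave mean differences between 0.58 and 0.68. One of them has 10 repeated spots, at 515 to 574 on KO 4, 428 to 514 on KO 22 and 270 to 328 on WT, and no WT spot reached a KO spot, before or after scaling.

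Fgfr2, the receptor used by extraembryonic lineages, gave values that depended on the probe. The brightest probe read 264.7, 250.2 and 243.5, differences of -0.08 and -0.01 (adjusted p = 0.779). A probe with 10 repeated spots read 97.5 to 113 on KO 4, 107 to 117 on KO 22 and 76.4 to 92.9 on WT, differences of 0.14 and 0.36 after scaling. On the scaled log2 values its WT spots (-3.03 to -2.75) overlapped those of KO 4 (-2.88 to -2.66) and not those of KO 22 (-2.59 to -2.47). A further probe read 57.2, 49.5 and 37.7, differences of 0.40 and 0.35. Averaging the probes of Fgfr2 turned the sign of its mean difference, to 0.19.

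Fgfr3 read 806.2, 733.0 and 867.9, and both knockouts were below WT by -0.31 and -0.29 (adjusted p = 0.166). Fgfr4 read 450.6, 476.4 and 409.2, with KO 4 and KO 22 on opposite sides of WT (-0.06 and 0.17). Fgfrl1, a receptor-like protein without a kinase domain, differed by -0.11 and -0.02. None of these 3 was called with the intensity trend.

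**Figure D3:**
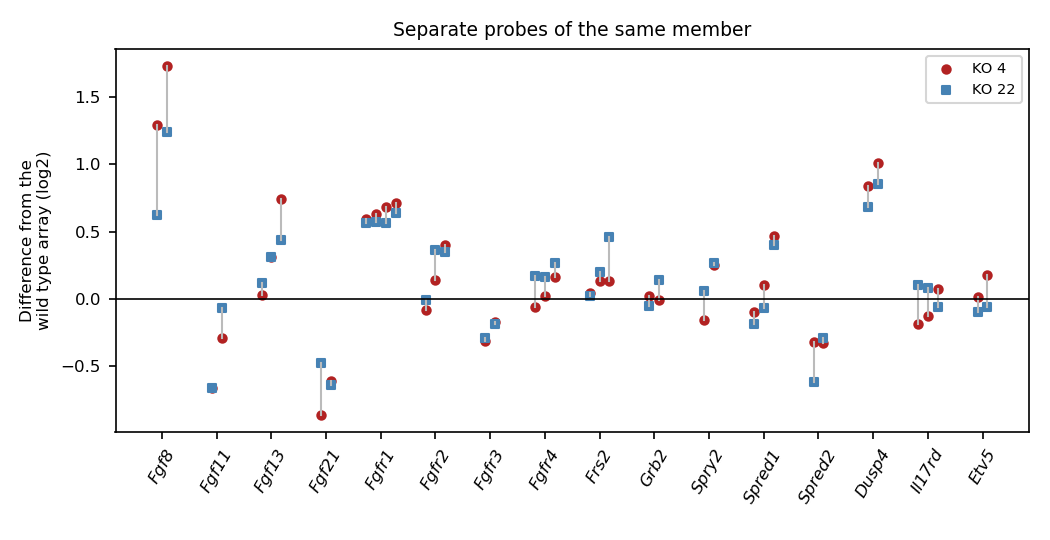
Difference from WT (log2) on KO 4 and KO 22 for every probe well above background on all 3 arrays (a circle for KO 4 joined to a square for KO 22), for the 16 members with several such probes. The means of the 4 Fgfr1 probes lie together at 0.58 to 0.68, while those of Fgfr2 lie on different sides of 0.

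In 9 of the 16 members with several probes well above background, all of these probes put both knockouts on the same side of WT: Fgf8, Fgf11, Fgf13, Fgf21, Fgfr1, Fgfr3, Frs2, Spred2 and Dusp4. In the other 7 at least 1 probe had KO arrays on another side. The mean differences of both adaptors were smaller than their SE. The docking protein Frs2 read 4014, 3537 and 3381 (differences 0.04 and 0.02, adjusted p = 0.845). Grb2, which links Frs2 to Sos, was the brightest adaptor, at 14927, 12839 and 12833 (0.02 and -0.05, adjusted p = 0.927).

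The 8 feedback inhibitors lay on both sides of WT: 4 were above WT on both KO arrays, 2 below and 2 had a knockout on each side. Dusp4, a nuclear phosphatase that inactivates ERK, had the largest difference above WT. It read 2411 on KO 4, 1935 on KO 22 and 1167 on WT (chr8:33583106-33583165, mm7), both knockouts above WT by 0.84 and 0.68. The mean was 0.76 ± 0.12, or 1.7-fold higher (adjusted p = 0.106; 0.00783 with the intensity trend, 2.37e-07 to 0.179 over the alternatives). A second Dusp4 probe, at 1724, 1378 and 741.5, differed by 1.01 and 0.85. A spot 1 row and 2 columns from the brighter probe was bright on WT alone, at 37.3, an intensity far under that of Dusp4 on WT.

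Spry1 and Spry2, Sprouty proteins that block receptor signalling to RAS and ERK, lay above WT by less with their brightest probes. Spry1 read 2165, 1717 and 1268 on KO 4, KO 22 and WT, differences of 0.57 and 0.39 (mean 0.48 ± 0.13, adjusted p = 0.149), and was called higher with the intensity trend. Spry2 read 4260, 3887 and 3109, differences of 0.25 and 0.27 (adjusted p = 0.191), and was not called. A second Spry2 probe, at 242.3, 253.3 and 235.8, differed by -0.16 and 0.06. Dusp6, a cytoplasmic ERK phosphatase and the brightest feedback gene, read 16492, 11322 and 10093. Its difference was 0.51 on KO 4 and 0.12 on KO 22 (adjusted p = 0.409), so that KO 4 carried most of it.

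Spry4 was the exception. Its brighter probe read 10.2 on KO 4 and 9.17 on KO 22, neither well above background, and 62.1 on WT. Both differences were -2.81 (mean -2.81 ± 0.09, adjusted p = 0.0346), and against the lowest signal well above background Spry4 was at least 6.42-fold lower in the knockouts. The call rests on a single WT spot. That spot lies 1 row and 1 column from a spot of another transcript that was likewise bright on WT alone (5.56, 2.41 and 42.7 on KO 4, KO 22 and WT). The second Spry4 probe was not well above background on any array (5.56, 2.07 and 5.13 on KO 4, KO 22 and WT) and gives no second measurement. The mean difference was -0.90 with normexp without the 8 dim WT spots and -2.01 in the series matrix. With clustered spots of this kind left out Spry4 could not be tested, and without the filter on dim probes its adjusted p was 0.17, within a range of 3.24e-13 to 0.17 over the alternatives. Whether the WT spot reads Spry4 RNA was not tested.

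Spred2, a membrane protein that restrains RAF activation, lay below WT. It read 471.4, 434.1 and 514.7, differences of -0.33 and -0.29 (adjusted p = 0.163), and a second probe differed by -0.32 and -0.62. Spred1 differed by 0.10 and -0.07 and Il17rd, the gene of the membrane inhibitor Sef, by 0.07 and -0.06. KO 4 and KO 22 thus fell on opposite sides of WT for both. The other Spred1 probes went different ways, one at 33.3, 28.1 and 30.9 (-0.10 and -0.19) and one at 112.1, 95.7 and 70.3 (0.47 and 0.40).

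Of the ERK-responsive transcription factors, Etv4 lay below WT, at 2097 on KO 4, 1706 on KO 22 and 2347 on WT. Its differences were -0.37 and -0.51 (mean -0.44 ± 0.11, 1.35-fold lower, adjusted p = 0.148), and it was called lower with the intensity trend. The mean was -0.01 with normexp and -0.36 with normexp without the 8 dim WT spots. Etv5 read 1312, 993.7 and 1003, with KO 4 at 0.18 and KO 22 at -0.06. So among members commonly read as outputs of ERK, Dusp4, Dusp6, Spry1 and Spry2 were above WT on both KO arrays with their brightest probes. Etv4, Spred2 and the poorly measured Spry4 were below, and Etv5, Spred1 and Il17rd had a knockout on each side.

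The rest of the pathway was described through a list of 74 further genes, of which 71 had a spot and 65 were tested. None was called by limma in either direction. At an unadjusted p below 0.05, 17 were higher and 5 lower (26.2% and 7.69% of the list, against 13.2% and 15% of all genes tested). With the intensity trend 14 were called higher and 5 lower (21.5% and 7.69%, against 8.31% and 10.7%). Both KO arrays were above WT for 38 of the 65 (58.5%, against 38% of all genes) and below for 22 (33.8%, against 45.5%), and the median difference was 0.12 against -0.03. Past 2-fold on both KO arrays were 1 gene above WT, Gpc6, and 1 below, Klb.

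In the ERK cascade, 21 of 38 tested genes lay above WT on both KO arrays and 13 below. Sos2, an exchange factor that loads RAS with GTP, read 381.5, 358.5 and 203.9, a mean difference of 0.73 ± 0.09 (adjusted p = 0.101), which was 0.05 with normexp and 0.60 with normexp without the 8 dim WT spots. Phlda1, an ERK-induced gene, read 10501, 9091 and 5173, a mean of 0.79 ± 0.09 (adjusted p = 0.1). On the other side Plcg1, a phospholipase recruited by the receptor, and Mapk3, which encodes ERK1, differed by means of -0.39 and -0.38 (adjusted p = 0.131 and 0.14). Other ERK-responsive genes of the list lay on both sides, as these examples, picked after their values were seen, show. Above WT were Dusp1 (0.62 and 0.45), Ets2 (0.61 and 0.50), Egr1 (0.47 and 0.32), Dusp9 (0.38 and 0.44) and Myc (0.76 and 0.39). Ier3 (0.21 and 0.13) and Dusp7 (0.18 and 0.08) lay above by less. Of these, Dusp1, Ets2, Egr1, Dusp9 and Myc passed with the intensity trend, which called 8.31% of all genes higher, and not in the main setting. All of them also passed with normexp, but that setting called 5214 of all 17709 genes higher and 8632 lower. A pass with normexp thus does not set them apart. Below WT were Ier2 (-0.23 and -0.33) and Etv1 (-0.17 and -0.47), and Dusp2 had a knockout on each side (0.21 and -0.15).

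Among co-receptors and heparan sulfate genes, 17 of 27 tested lay above WT on both KO arrays and 9 below. Gpc6, a glypican that carries heparan sulfate, read 136.4, 130.5 and 50.6, a mean of 1.27 ± 0.10 (adjusted p = 0.0858). The normexp correction turned this mean to -0.68, and without the 8 dim WT spots it was 0.70. The syndecan Sdc4 read 2475, 2369 and 1452, a mean of 0.61 ± 0.10 (adjusted p = 0.108). Klb, the co-receptor of Fgf21, read 20.2, 18.1 and 56.2, a mean of -1.68 ± 0.09 (adjusted p = 0.0611), and of -0.64 with normexp without the 8 dim WT spots, so the hormone-like ligand and its co-receptor both lay below WT. Ncam1, an adhesion protein that binds FGF receptors, read 297.2, 235.3 and 381.5, a mean of -0.65 ± 0.13 (adjusted p = 0.118) with its brightest probe. Averaged over its 6 probes well above background on some array, the mean was -0.07.

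**Figure D4:**
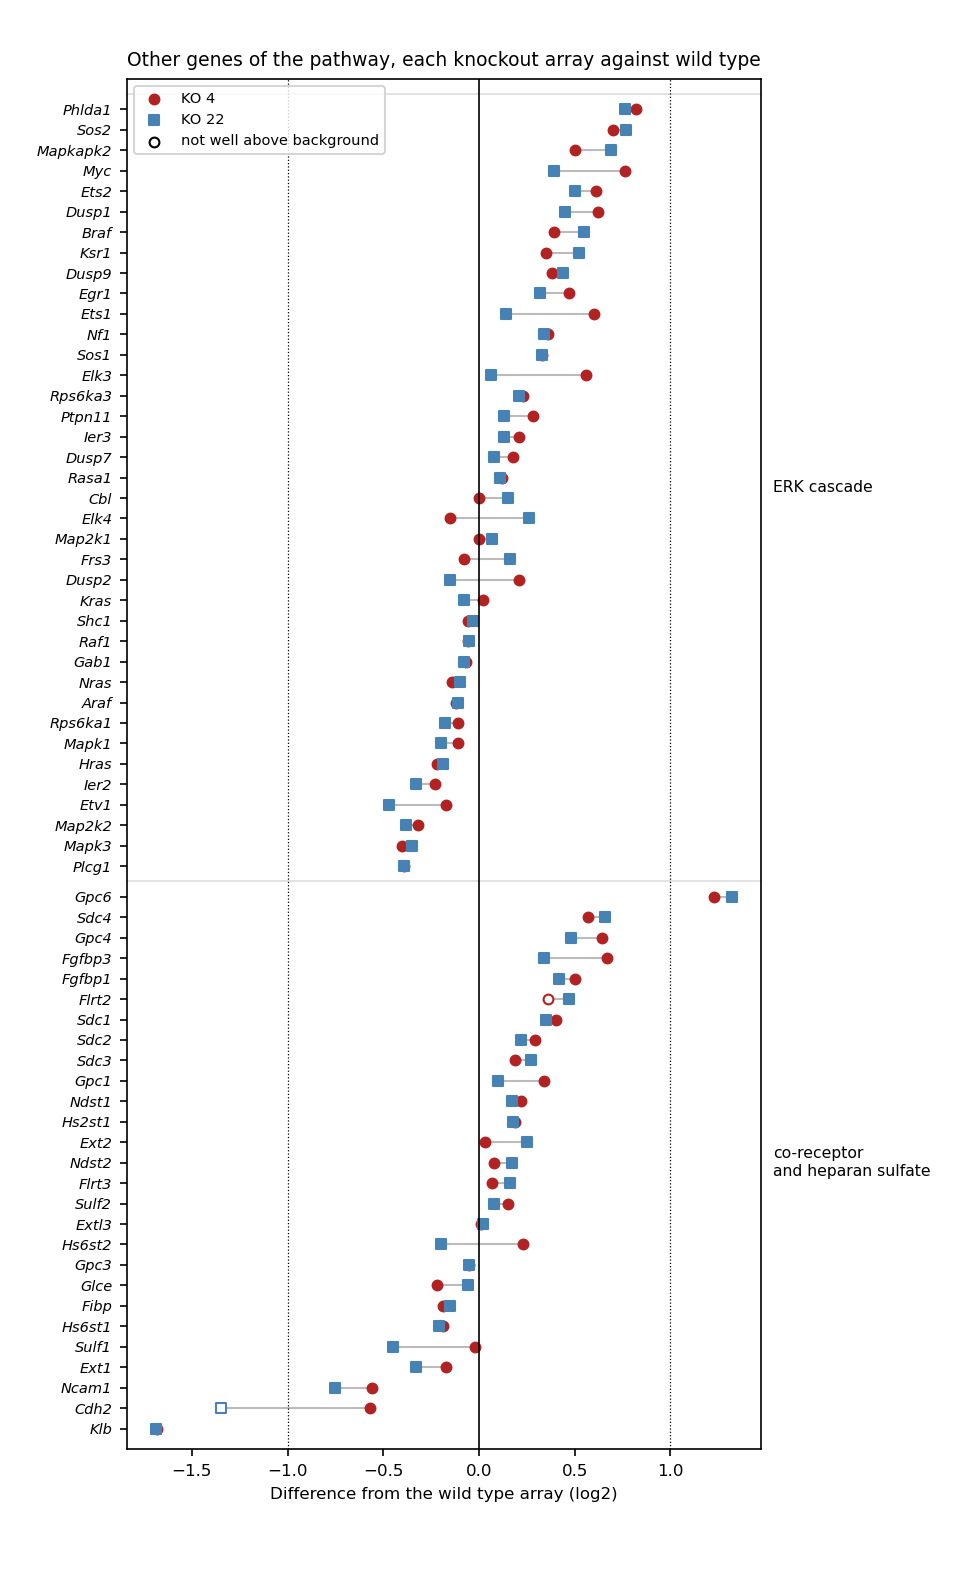
Difference from WT (log2, x axis) of the 65 tested further pathway genes, with KO 4 as circles and KO 22 as squares, open where the spot was not well above background; dotted lines mark 2-fold, and both knockouts are read against the same WT array. Gpc6 lies farthest to the right (1.23 and 1.32) and Klb farthest to the left (-1.68 and -1.69).

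Markers of other lineages in which FGF signalling acts also differed between the arrays. All 9 primitive endoderm markers, a lineage that depends on FGF in the early embryo, lay below WT on both KO arrays, with summed levels of 2.47 on KO 4, 2.17 on KO 22 and 4.00 on WT. Of the 8 tested of 9 trophoblast markers, 7 lay above WT on both, with summed levels of 230.5, 203.1 and 128.4, and Elf5 was not well above background. Most of each trophoblast sum came from Krt8 (differences 0.69 and 0.39) and Krt18 (1.00 and 0.87). The dimmer Hand1, Eomes and Cdx2 had mean differences of 1.25, 1.27 and 0.97, which fell as low as -1.38, -0.75 and -0.08 over the alternatives. Those of Tfap2c, Krt7, Krt8 and Krt18 stayed above WT in every alternative. None of these markers was called by limma, although 8 of the primitive endoderm markers were lower and 5 of the trophoblast markers higher at an unadjusted p below 0.05 (15% of all genes tested were lower and 13.2% higher). The trophoblast marker below WT, Ascl2, differed by -0.47 and -0.44 and was lower at that unadjusted threshold. With the intensity trend, 6 of the primitive endoderm markers were called lower (10.7% of all genes were) and 6 of the trophoblast markers higher (8.31% of all genes). Their part in the values of the FGF genes was not tested.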

How the data were processed

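Per the labels' protocols, total RNA of 3 samples was labelled with Cy3 and hybridised to 1-colour Agilent arrays. The authors deposited, per the file headers, scanner output of Agilent Feature Extraction 10.1.1.1, with an intensity for each spot (background-subtracted by that software) and flags for spots well above background. The series matrix was deposited by the authors as log2 values and served as an alternative; limma is named in the submitters' processing notes. The genome build of the probe positions, mm7, is taken from the file headers.

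Control spots and outlier-flagged spots were left out, log2 intensity was set to each array's 75th percentile, and repeated spots were averaged. Probes were named by accession, symbol or synonym (79.5% of 41174 matched a RefSeq gene). The brightest probe stood for its gene. Genes well above background on at least 1 array entered a moderated linear model (R 4.3.3, limma 3.58.1, functions lmFit and eBayes) of KO 4 and KO 22 against WT. Calls were made at a Benjamini-Hochberg adjusted p below 0.05. The fit leaves 1 residual degree of freedom, and the prior SD of 0.0877 sets the smallest SE. The fit was tested on simulated data. Arrays have no read depth, and their number limits the precision. Where spots of both KO arrays were not well above background, a fold is the bound against the lowest signal well above background.

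Named with all values were members called by limma, past 0.5 on both KO arrays, or brightest in their role, and up to 4 pathway genes in each direction by size, taken from genes that every array measured above background and whose KO arrays lay on 1 side of WT. The remaining members were added so that all are described. The members and lists were chosen with earlier results of these data known. Alternatives were normexp (offset 50), with and without 8 WT spots dimmer than their background, quantile normalization, the series matrix, other filters, the mean over probes, an intensity trend, and leaving out spots or a KO array. Promoter sequences are from RefSeq (GRCm38.p6).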

Additional observations from a re-analysis of the deposited data

How the results depend on the processing

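With 1 WT array, neither the spread of WT cultures nor a fault of that array can be measured, and dim genes lie close to background. No paired analysis was possible because the labels number the knockouts 4 and 22 and give WT no number.

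The normexp correction moved the median of all genes from -0.03 to -0.20 and called 5214 of all 17709 genes higher and 8632 lower. Of the 29 members tested it called 9 higher and 13 lower. It put 0 members past 2-fold higher and 9 lower, 10 at least 0.5 lower, with a member median of -0.15. Further pathway genes gave 33 and 16 calls, 7 past 2-fold lower and a median of 0.29. Its mean differences turned sign for Fgf7 (-1.91), Fgf9 (-1.81), Fgf13 (-1.16), Fgfr4 (-0.15), Grb2 (0.49), Gpc6 (-0.68), Plcg1 (0.06), Mapk3 (0.06), T (-1.71) and Col3a1 (-0.36). Without the 8 WT spots dimmer than their background, normexp called 1369 of 17707 genes higher and 1880 lower. Among members it called 4 higher and 5 lower, with 0 past 2-fold in either direction, 2 past 0.5 higher and 2 lower. The pathway then had 14 and 5 calls, 0 past 2-fold either way and a median of 0.07, and the sign changes listed for normexp did not occur.

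The series matrix gave 2 members called higher and 3 lower, 1 past 2-fold lower, and 3 and 2 pathway calls. Of all 17709 genes it called 614 higher and 616 lower. The filter on all 3 arrays gave 2 and 2 member calls, 0 past 2-fold lower, 3 past 0.5 lower, and 3 and 1 pathway calls. Of the 16405 genes tested under that filter, 500 were called higher and 411 lower. The intensity trend gave 4 and 6 member calls and 14 and 5 pathway calls, against 1472 and 1900 calls over all 17709 genes. Without a filter, 0 members were called lower (no gene was called, and 5968 had an unadjusted p below 0.05) and 2 pathway genes were past 2-fold higher. Without clustered spots bright on 1 array, 0 members were called lower (25 of 17583 genes were) and 1 was past 2-fold lower. The mean over probes left 0 members past 2-fold higher and turned Fgfr2 (0.19), Grb2 (0.02) and Il17rd (-0.02). Grb2 also turned with quantile normalization (0.04) and the matrix (0.07). The causes were not tested.

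Leaving out KO 4 or KO 22 gives values with no test. Members past 0.5 higher then ranged from 4 to 8 (8 without KO 22) and lower from 5 to 6. Past 2-fold they ranged from 2 to 3 lower, with 1 higher in both. The member median ranged from -0.05 (without KO 4) to 0.02, the pathway median from 0.13 to 0.15, and pathway genes past 2-fold lower from 1 to 2. Without KO 22 and without KO 4, mean differences were -0.06 and 0.17 for Fgfr4, 0.02 and -0.05 for Grb2, 0.10 and -0.07 for Spred1, 0.07 and -0.06 for Il17rd, 0.18 and -0.06 for Etv5, and 1.13 and -0.08 for Col3a1, each with 1 value on the other side of 0 from the mean of both.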
